A study of Mus musculus with 16 samples.

Results

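Homologous recombination and Fanconi repair genes were read here as 9 rows of a table of 38720 gene rows, picked by symbol: Brca1, Bard1, Brca2, Rad54l, Xrcc2, Exo1, Blm, Fancd2 and Fanci. All 9 had enough reads to be tested. The table held RNA sequencing libraries of adipose progenitors, the resident precursor cells of fat, from visceral (VAT) and subcutaneous (SAT) adipose tissue of mice aged 4 weeks. The 4 groups were Nr4a1-/- VAT, Nr4a1+/+ VAT, Nr4a1-/- SAT and Nr4a1+/+ SAT, with n = 4 libraries in each and 16 in all. Nr4a1-/- mice (KO) were labelled B6;129S2-Nr4a1tm1Jmi/J and Nr4a1+/+ mice (WT) wild type, and the strain was given as C57BL/6J for both. The targeted allele is carried in the germ line, so no cell type of the KO mice has the intact gene. Nr4a1 encodes an orphan nuclear receptor that acts as a transcription factor.

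Homologous recombination repairs a severed chromosome by copying the intact sister chromatid. The broken ends are trimmed to a 3′ overhang, which is coated with protein and invades the sister. The Fanconi pathway unhooks crosslinks between the DNA strands, marks the damage by attaching ubiquitin to the paired proteins FANCD2 and FANCI, and hands the break to recombination. Cells use both pathways mainly while DNA is being copied or a sister is present, and most of their genes are transcribed at low levels in cells that do not divide.

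The genotype labels were checked first. Nr4a1 averaged 309 ± 12.8 CPM in KO VAT libraries and 1536 ± 97.5 CPM in WT VAT libraries (SD, n = 4 each). In SAT it averaged 201 ± 6.11 CPM in KO libraries and 1087 ± 99.4 CPM in WT libraries. CPM are read counts scaled to a common library total. The 8 KO libraries all lay below the 8 WT libraries. The table gives 1 count per gene, so reads from the targeted part of Nr4a1 could not be separated from the rest.

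Library totals lay between 35761196 and 43984232 counts in KO VAT, 42383156 and 46293781 in WT VAT, 44181663 and 55551845 in KO SAT, and 34655519 and 49437944 in WT SAT. Of 10 progenitor markers, Dcn, Cd34 and Pdgfra averaged 8704, 1139 and 693 CPM over all libraries, and the lowest, Icam1 and Cd24a, 64.9 and 11.7 CPM. The pericyte and smooth muscle markers Acta2, Myh11 and Rgs5 averaged 1161, 980 and 694 CPM. Icam1, Cd24a, Acta2, Myh11 and Rgs5 are named after their values were seen. WT SAT replicate 3 stood farthest from its own group, with a mean correlation of 0.976 to the other libraries of that group. The number of recombination and Fanconi genes passing the test was the same with and without it in each comparison it entered. The labels call the libraries biological replicates. Nothing says that they came from separate animals, so p-values measure the spread between these samples, and genotype cannot be told apart from litter or preparation day. The samples are bulk RNA, so fewer cells of a type and less RNA per cell cannot be told apart.

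In KO progenitors most of these genes stood above WT in both depots. The 9 were chosen with earlier results of these data known. Their counts beside the shares of all tested genes therefore describe them and are no independent test. A gene is said to have risen or fallen where edgeR's quasi-likelihood test gave a Benjamini-Hochberg adjusted p under 0.05 over the 16842 genes tested. In VAT, 6 of 9 rose in KO and 0 fell, whereas 2.84% of all tested genes rose and 4.1% changed in either direction. In SAT, 5 of 9 rose and 0 fell, whereas 3.46% of all tested genes rose and 5.89% changed in either direction. Averaged over the depots, 8 of 9 rose and 0 fell, against 4.65% of tested genes that rose and 8.06% that changed. None of the 9 had an unadjusted p under 0.05 in the downward direction in any of these comparisons, and DESeq2 and limma-voom also gave 0 that fell. The median log2 fold change of the 9 was 1.10 in VAT, 0.67 in SAT and 0.86 over both depots, beside -0.00, -0.01 and -0.01 for all tested genes. In SAT 3 of 9 rose when KO SAT replicate 4 was left out. Summed over the 9 genes, levels were 30.8 ± 1.97 CPM in KO VAT and 19.3 ± 1.17 CPM in WT VAT, and 26.0 ± 3.02 CPM in KO SAT and 17.9 ± 2.30 CPM in WT SAT (SD, n = 4 each).

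**Figure D1:**
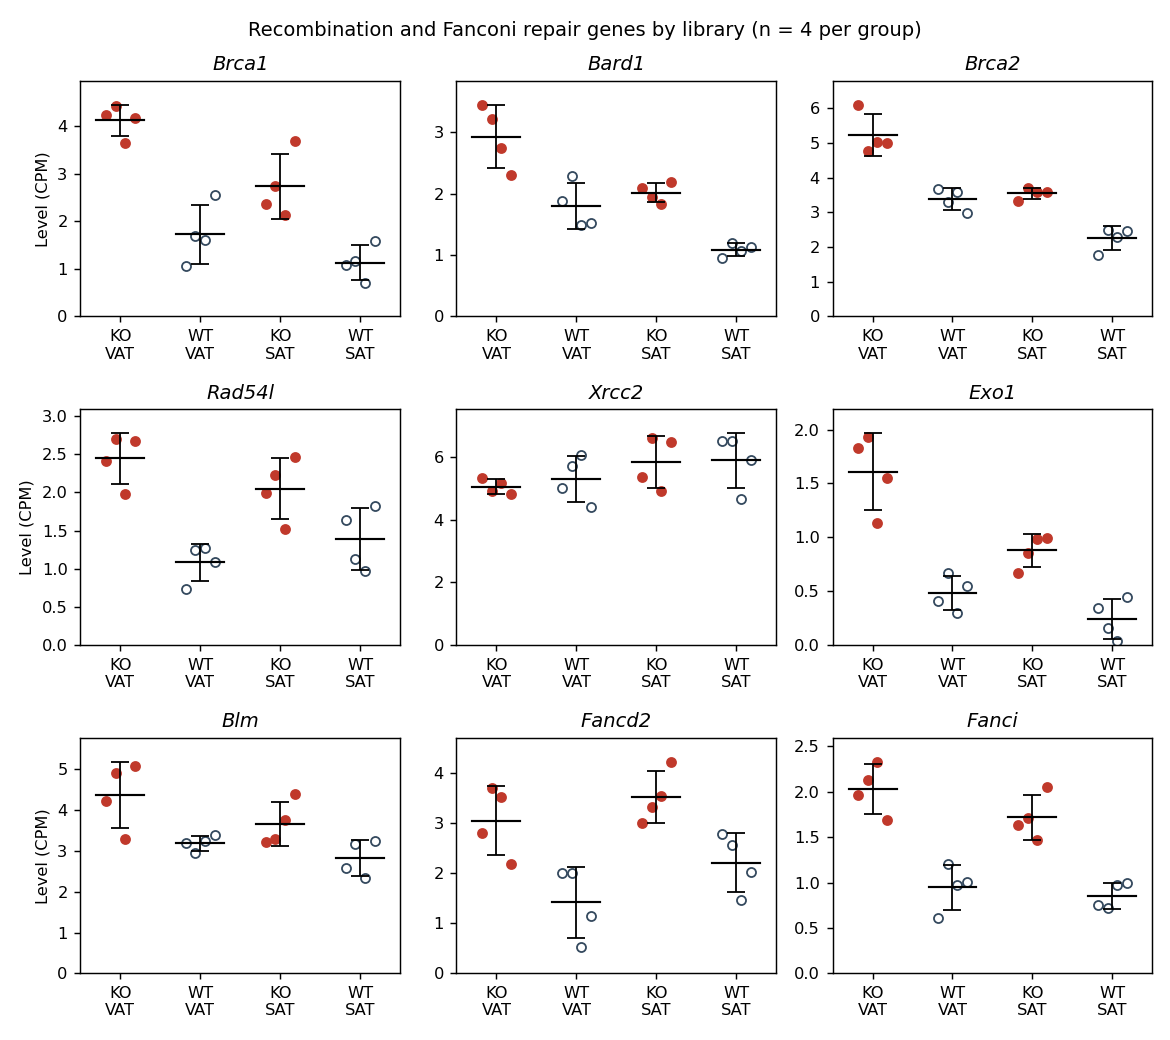
Level in CPM of each of the 9 genes (vertical axes, from 0) in the 16 libraries, grouped as KO VAT, WT VAT, KO SAT and WT SAT. Points are libraries (filled for KO, open for WT) and bars are the mean ± SD of 4. KO points of Brca1, Bard1, Brca2, Exo1, Fancd2 and Fanci lie above all WT points of the same depot, while those of Xrcc2 and Blm overlap them.

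The sequences before the start sites of Brca1, Bard1 and Brca2 are shown because these genes rose in KO in both depots and have upstream bases to print. Fanci and Exo1 rose in both depots too and are named only. The printed sequences are the bases upstream of the annotated transcripts within 250 bases of the RefSeq start, leaving out any exon of a neighbouring gene, written 5′ to 3′ on the strand of the gene. Capitals mark a CCAAT word in Brca1, a TTTGAA word and an E2F word in Bard1, and an E2F word read on the opposite strand in Brca2. The Brca1 window is chr11:101551956-101552148 on the minus strand, the Bard1 window chr1:71103147-71103222 on the minus strand, and the Brca2 window chr5:150522371-150522620 on the plus strand (RefSeq, GRCm38.p6).
Brca1: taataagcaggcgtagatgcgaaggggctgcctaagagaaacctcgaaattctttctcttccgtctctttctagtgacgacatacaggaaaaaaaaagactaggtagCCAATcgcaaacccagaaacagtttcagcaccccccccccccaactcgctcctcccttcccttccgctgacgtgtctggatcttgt
Bard1: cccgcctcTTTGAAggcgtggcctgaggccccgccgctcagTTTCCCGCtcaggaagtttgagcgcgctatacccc
Brca2: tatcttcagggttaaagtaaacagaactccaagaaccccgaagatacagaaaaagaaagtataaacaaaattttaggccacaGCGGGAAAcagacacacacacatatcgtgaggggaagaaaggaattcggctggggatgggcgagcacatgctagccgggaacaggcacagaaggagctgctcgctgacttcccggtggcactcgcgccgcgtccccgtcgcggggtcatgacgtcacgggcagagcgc

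Promoter windows were available for 6 of the 9 genes, and 4 sets of words were searched on both strands of the full 250 bases before the start, of which the Brca1 and Bard1 sequences above are a shortened part. An E2F word (TTTCCCGC, TTTCGCGC, TTTGCCGC or TTTGGCGC) occurred in 2 of the 6, Bard1 and Brca2, and in 1.86% of 32851 promoters of the same length. The word of the cell cycle homology region (TTTGAA or TTCGAA) occurred in 1 of the 6, Bard1, and in 17.1% of all promoters. CCAAT occurred in 3 of the 6, Brca1, Blm and Rad54l, and in 33.8% of all promoters. The word bound by NR4A monomers (AAAGGTCA) occurred in 0 of the 6 and in 1.34% of all promoters. These matches describe letters in a window and nothing more.

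Brca1 and Bard1 encode the 2 subunits of a ubiquitin ligase that commits a break to recombination. Brca1 measured 4.22, 4.42, 3.64 and 4.17 CPM in KO VAT libraries, against 1.06, 1.68, 1.60 and 2.55 CPM in WT VAT libraries. The SAT libraries gave 2.35, 2.75, 2.14 and 3.68 CPM in KO libraries, against 1.07, 1.17, 0.701 and 1.58 CPM in WT libraries. The lowest KO library lay above the highest WT library in each depot, and KO VAT held the 3 highest values of the gene. The log2 fold change of Brca1 was 1.25 ± 0.25 (SE) in VAT, a 2.38-fold rise with an edgeR adjusted p of 0.00754, and 1.26 ± 0.26 in SAT with an adjusted p of 0.00921.

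Bard1 measured 3.45, 3.21, 2.75 and 2.30 CPM in KO VAT libraries, against 1.89, 2.28, 1.48 and 1.52 CPM in WT VAT libraries. In SAT, Bard1 measured 2.09, 1.94, 1.84 and 2.19 CPM in KO libraries, against 0.959, 1.2, 1.07 and 1.13 CPM in WT libraries. The genotypes were well apart in SAT and nearly met in VAT, where the lowest KO library stood at 2.30 CPM and the highest WT library at 2.28 CPM. Bard1 rose by a log2 fold change of 0.71 ± 0.17 in VAT (edgeR adjusted p 0.0292) and 0.89 ± 0.18 in SAT (adjusted p 0.0085). In VAT it no longer passed when KO VAT replicate 1 or 2, or WT VAT replicate 1, 3 or 4, was left out (adjusted p 0.0639 to 0.0942), with no filter on low counts (0.076) or with only the groups compared in the fit (0.0728). The SAT call held without any of the libraries compared.

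Brca2, Rad54l and Xrcc2 act when the overhang invades the sister. BRCA2 prepares the overhang for strand exchange, RAD54L is a motor protein that helps the invasion, and XRCC2 helps to keep the invading strand stable. Brca2 measured 6.11, 4.77, 5.03 and 5.0 CPM in KO VAT libraries, against 3.69, 3.30, 3.58 and 2.98 CPM in WT VAT libraries. For SAT the values were 3.34, 3.71, 3.59 and 3.60 CPM in KO libraries, against 1.76, 2.50, 2.30 and 2.45 CPM in WT libraries. No KO library of a depot fell within its WT range. The log2 fold change was 0.63 ± 0.13 in VAT (edgeR adjusted p 0.00993) and 0.66 ± 0.14 in SAT (adjusted p 0.00817), and both calls held without any of the libraries compared.

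Rad54l measured 2.42, 2.71, 1.98 and 2.67 CPM in KO VAT libraries, against 0.737, 1.25, 1.27 and 1.09 CPM in WT VAT libraries. Rad54l in SAT measured 1.99, 2.23, 1.52 and 2.46 CPM in KO libraries, against 1.64, 1.12, 0.968 and 1.82 CPM in WT libraries. The genotypes did not overlap in VAT and overlapped in SAT, through KO SAT replicate 3 and WT SAT replicates 1 and 4. Rad54l rose in VAT (log2 fold change 1.17 ± 0.23, edgeR adjusted p 0.00717), and its value in SAT was 0.55 ± 0.23 with an adjusted p of 0.174. The difference between these effects, VAT minus SAT, was 0.62 ± 0.33 with an adjusted p of 0.366, so the effects were not shown to differ.

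Xrcc2 measured 5.34, 4.93, 5.17 and 4.83 CPM in KO VAT libraries, against 5.01, 5.73, 6.06 and 4.41 CPM in WT VAT libraries. Its SAT values were 5.36, 6.61, 4.92 and 6.50 CPM in KO libraries, against 6.53, 6.51, 4.67 and 5.90 CPM in WT libraries. KO and WT overlapped over most of their range in each depot. The log2 fold change of Xrcc2 was -0.07 in VAT, with a 95% interval of -0.35 to 0.22, and -0.02 in SAT, with an interval of -0.31 to 0.27. Over both depots the interval of Xrcc2 ran from -0.24 to 0.16, below those of Brca1 (0.87 to 1.64), Bard1 (0.53 to 1.07) and Brca2 (0.44 to 0.84).

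Exo1 and Blm act on DNA ends and on recombination intermediates. EXO1 is a nuclease that lengthens the overhang, and BLM is a helicase that assists it and later helps to take joined molecules apart without crossing over. Exo1 was the lowest of the 9 genes and had the largest fold change. It measured 1.83, 1.94, 1.13 and 1.55 CPM in KO VAT libraries, against 0.412, 0.664, 0.297 and 0.545 CPM in WT VAT libraries. In SAT it measured 0.672, 0.855, 0.988 and 0.995 CPM in KO libraries, against 0.343, 0.153, 0.0334 and 0.448 CPM in WT libraries, where it rested on 15, 6, 1 and 19 reads. Every KO library stood above the WT libraries of its depot. The log2 fold change of Exo1 was 1.74 ± 0.40 in VAT (edgeR adjusted p 0.0181) and 1.78 ± 0.43 in SAT (adjusted p 0.0227). In VAT it no longer passed when KO VAT replicate 2 or WT VAT replicate 1 or 3 was left out (adjusted p 0.0536 to 0.0658). The same held in SAT for KO SAT replicates 3 and 4 and WT SAT replicate 2 (0.0559 to 0.0688), and with only the SAT groups in the fit (0.0752).

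Blm measured 4.22, 4.90, 3.29 and 5.09 CPM in KO VAT libraries, against 3.19, 2.95, 3.25 and 3.38 CPM in WT VAT libraries. Blm in SAT measured 3.22, 3.29, 3.75 and 4.39 CPM in KO libraries, against 2.58, 3.17, 2.34 and 3.23 CPM in WT libraries. The groups overlapped in each depot, by KO VAT replicate 3 in VAT and by KO SAT replicate 1 in SAT. Blm had log2 fold changes of 0.45 ± 0.16 in VAT (edgeR adjusted p 0.124) and 0.37 ± 0.16 in SAT (adjusted p 0.182). It rose when the depots were averaged (0.41 ± 0.11, adjusted p 0.0299), and that call was lost in 8 of the 16 fits that each left out a library (adjusted p 0.0522 to 0.0743) and with no filter on low counts (0.0652). The 8 libraries were KO VAT replicates 2 and 4, WT VAT replicates 1, 2 and 3, KO SAT replicates 3 and 4, and WT SAT replicate 1. Blm passed in VAT without KO VAT replicate 3 (adjusted p 0.0499).

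Fancd2 and Fanci encode the proteins that the Fanconi core complex marks with ubiquitin at a crosslink. Fancd2 measured 2.80, 3.69, 3.51 and 2.18 CPM in KO VAT libraries, against 1.99, 1.99, 0.534 and 1.15 CPM in WT VAT libraries. In SAT libraries Fancd2 measured 3.0, 3.32, 3.54 and 4.23 CPM in KO libraries, against 2.79, 2.55, 1.47 and 2.03 CPM in WT libraries. KO and WT libraries did not overlap in either depot, but the WT VAT libraries spread widely, with a coefficient of variation of 50.2%. The log2 fold change of Fancd2 was 1.11 ± 0.31 in VAT (edgeR adjusted p 0.0571) and 0.67 ± 0.31 in SAT (adjusted p 0.213). The VAT value passed with DESeq2 (adjusted p 0.0107) and with limma-voom (0.0297), and by edgeR without WT VAT replicate 2 (0.0475). Averaged over the depots Fancd2 rose (0.89 ± 0.22, adjusted p 0.0186).

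Fanci measured 1.97, 2.13, 2.33 and 1.69 CPM in KO VAT libraries, against 0.607, 1.2, 0.970 and 1.01 CPM in WT VAT libraries. In SAT it measured 1.63, 1.71, 1.47 and 2.05 CPM in KO libraries, against 0.754, 0.715, 0.968 and 0.991 CPM in WT libraries. Its KO libraries lay above its WT libraries in each depot. Fanci rose by a log2 fold change of 1.10 ± 0.21 in VAT (edgeR adjusted p 0.00609) and 1.0 ± 0.22 in SAT (adjusted p 0.0121). In SAT it no longer passed when KO SAT replicate 4 was left out (adjusted p 0.0528).

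Counted by overlap, the KO libraries lay above all WT libraries for 7 of the 9 genes in VAT and 6 of the 9 in SAT, whereas 7.02% and 7.95% of all tested genes did so in VAT and SAT.

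**Figure D2:**
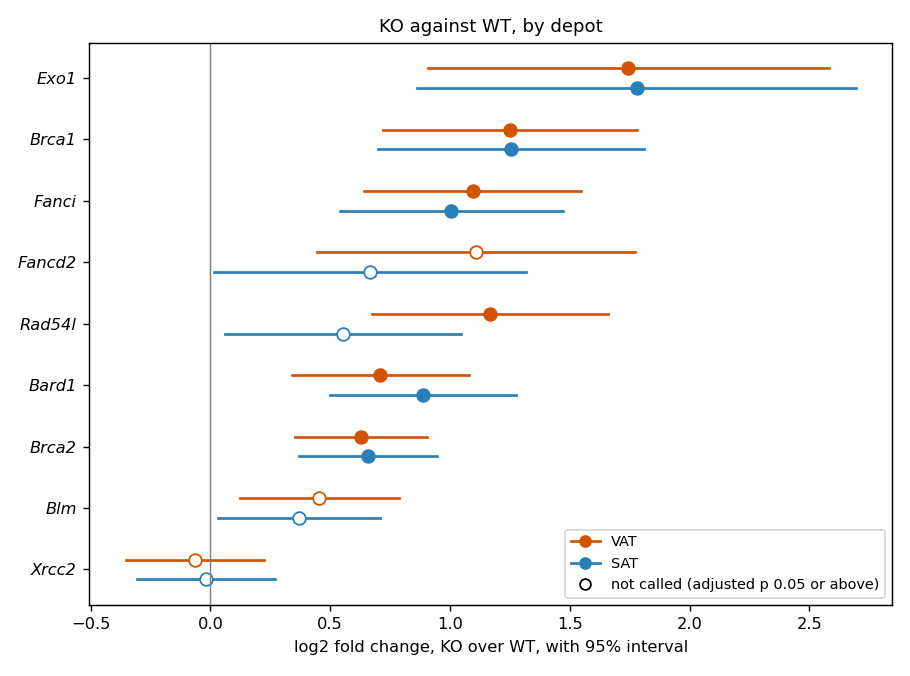
log2 fold change of KO over WT (horizontal axis) for each of the 9 genes, ordered by the average over the depots, with VAT above SAT and lines for the 95% interval. Filled points have an edgeR adjusted p under 0.05. Exo1 leads at 1.74 in VAT and 1.78 in SAT, and both intervals of Xrcc2 span 0.

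The library kit does not keep the strand of the RNA, so reads shared with a gene on the opposite strand cannot be assigned by strand. Whether such reads were counted for either gene or left out is not given. Exons of Polg cover 16.0% of the exon bases of Fanci, and exons of Lrrc41 cover 15.4% of those of Rad54l. Polg, at 44.3 CPM over all libraries, had a log2 fold change of KO over WT of -0.09 ± 0.10 in VAT and -0.07 ± 0.10 in SAT. Lrrc41, at 22.0 CPM, had -0.18 ± 0.16 in VAT and 0.19 ± 0.16 in SAT. Neither passed the edgeR test in either depot. Fancd2os covers 3.24% of the exon bases of Fancd2 and reached at most 0.0685 CPM.

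Depot was compared next, within each genotype. Brca2 and Bard1 were higher in VAT than in SAT in both genotypes, and the other 7 genes did not pass the test. In KO mice 2 of 9 rose in VAT, whereas 23.3% of tested genes rose and 43.3% changed in either direction. In WT mice 2 of 9 rose, whereas 19.1% of tested genes rose and 36.7% changed in either direction. In this comparison 2 of 9 is near the share of all tested genes that rose.

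Brca2 averaged 5.23 ± 0.599 CPM in KO VAT and 3.56 ± 0.155 CPM in KO SAT (SD, n = 4 each), a log2 fold change of 0.56 ± 0.13 with an edgeR adjusted p of 0.00229. In WT mice it averaged 3.39 ± 0.319 CPM in VAT and 2.25 ± 0.341 CPM in SAT, a log2 fold change of 0.59 ± 0.14 with an adjusted p of 0.00241. Bard1 had log2 fold changes of VAT over SAT of 0.54 ± 0.17 in KO (adjusted p 0.0192) and 0.72 ± 0.18 in WT (adjusted p 0.00531). The VAT libraries of both genes lay above all SAT libraries in each genotype, as did those of Exo1 in KO, making 3 of 9 genes in KO and 2 of 9 in WT. Of all tested genes 23.8% in KO and 18% in WT did so. In KO, Bard1 no longer passed when KO VAT replicate 1 or 2 or KO SAT replicate 3 was left out (adjusted p 0.0522 to 0.0666), or with no filter on low counts (0.05).

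Brca1 had a log2 fold change of VAT over SAT of 0.59 ± 0.25 in KO (edgeR adjusted p 0.0631) and 0.59 ± 0.27 in WT (adjusted p 0.0916). Exo1 had 0.87 ± 0.38 in KO (adjusted p 0.0755) and 0.91 ± 0.44 in WT (adjusted p 0.121). Both genes passed in KO with DESeq2 (adjusted p 0.0406 for Brca1 and 0.0251 for Exo1) and with limma-voom (0.0234 and 0.0312). Both also passed in WT without WT SAT replicate 4 (adjusted p 0.0363 and 0.0366). Brca1 further passed in KO without KO SAT replicate 4 (0.0291) and in WT without WT VAT replicate 1 (0.0304). The signs of Fancd2 and Xrcc2 were negative in both genotypes, with -0.21 ± 0.30 and -0.21 ± 0.14 in KO and -0.65 ± 0.32 and -0.16 ± 0.14 in WT. Rad54l had 0.25 ± 0.23 in KO and -0.36 ± 0.24 in WT.

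**Figure D3:**
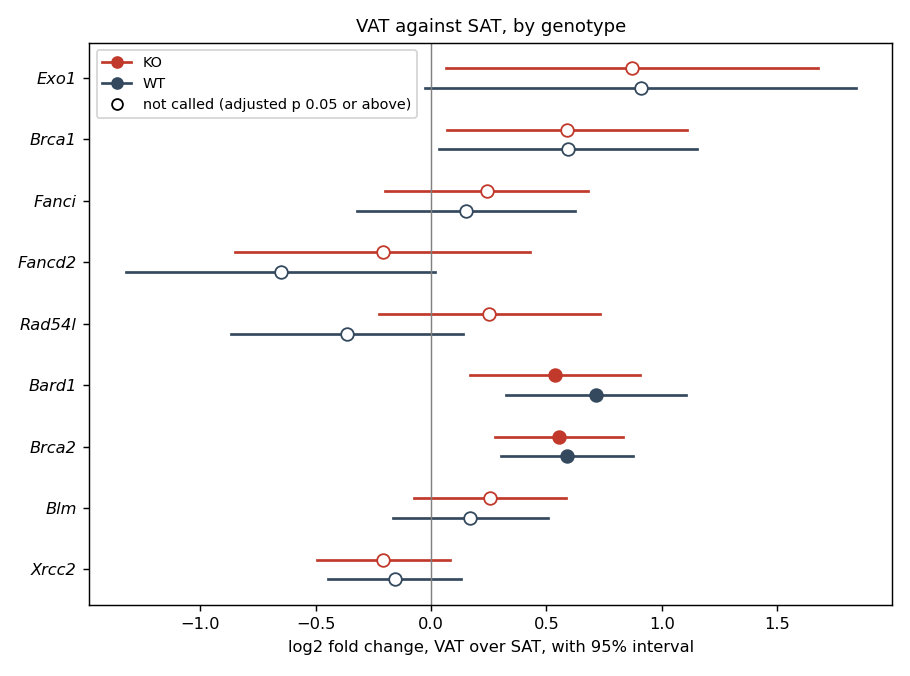
log2 fold change of VAT over SAT (horizontal axis) for the same 9 genes in the same order, with KO above WT and lines for the 95% interval. Filled points, at Bard1 and Brca2 in both genotypes, have an edgeR adjusted p under 0.05.

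Whether the KO effect differed between the depots was tested as an interaction, VAT minus SAT. It passed for 0 of 9 genes with edgeR, DESeq2 and limma-voom, and 0 of 9 had an unadjusted edgeR p under 0.05, while edgeR called 45 of all tested genes (0.267%). The intervals were wide: that of Brca1 ran from -0.67 to 0.66 and that of Exo1 from -1.12 to 1.05 on the log2 scale.

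Levels were compared between the genes per kb of exon. Over all libraries Xrcc2 stood at 1.06 CPM per kb, followed by Blm at 0.400, Bard1 at 0.346, Fancd2 at 0.321, Brca1 at 0.284, Brca2 at 0.264, Fanci at 0.240, Rad54l at 0.226 and Exo1 at 0.0954. From Blm down to Rad54l, each step between neighbours was smaller than the SD of either gene over the 16 libraries, and the order of these 7 genes differed between the groups. Xrcc2 at the top and Exo1 at the bottom kept their places in all 4 groups.

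**Figure D4:**
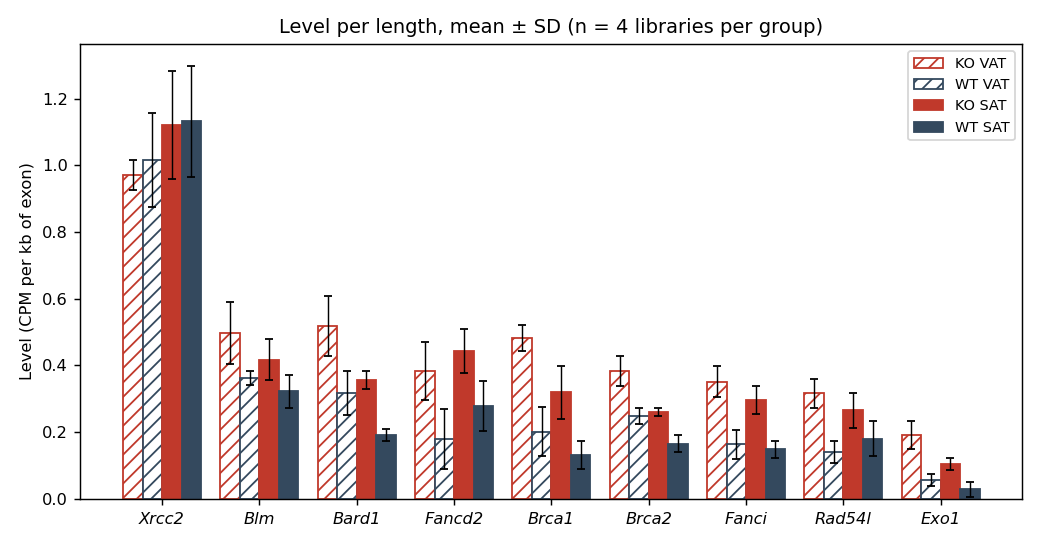
Mean level of each gene in CPM per kb of exon (vertical axis, from 0) in KO VAT, WT VAT, KO SAT and WT SAT, with bars for the SD of 4 libraries. Xrcc2 is highest and Exo1 lowest in each group.

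The 9 genes differed in how near they lay to their average over the 16 libraries. Each gene's log2 CPM was centred on its own mean and set against the average of the 9. The difference takes in the size of a change and counting noise as well as direction, and each of the 9 is part of the average. The root mean square difference from that average was 0.256 for Bard1 and Fanci, 0.281 for Rad54l, 0.291 for Brca2 and Blm, and 0.353 for Brca1. It was 0.525 for Xrcc2, 0.556 for Fancd2 and 0.747 for Exo1. Among 13415 other genes averaging 1 CPM or more, the 5 nearest to the average were Ncapg2 (0.165), Fignl1 (0.171), Wdhd1 (0.174), Dck (0.183) and Chaf1a (0.189). Ncapg2 encodes a condensin subunit, Fignl1 an ATPase of recombination, Wdhd1 a replication fork protein, Dck a nucleoside kinase and Chaf1a a subunit of a histone chaperone of replication.

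The partners of these genes in recombination moved in part. Of 38 tested, 8 rose and 0 fell in KO VAT, and 7 rose and 0 fell in KO SAT. The share of all tested genes that rose was 2.84% in VAT and 3.46% in SAT. The median log2 fold change of the 38 partners was 0.15 in VAT and 0.19 in SAT. At an unadjusted p under 0.05, 1 was lower in VAT and 0 in SAT, and neither DESeq2 nor limma-voom gave any that fell. Fignl1 rose by 1.11 ± 0.18 in VAT and 0.89 ± 0.18 in SAT, and Polq, the polymerase of an alternative end joining route, by 1.22 ± 0.24 in VAT and 1.16 ± 0.24 in SAT. Rbbp8, which starts end trimming, rose in SAT (0.39 ± 0.10, adjusted p 0.0227) and had 0.05 ± 0.09 in VAT (adjusted p 0.855). Rbbp8 was higher in VAT than in SAT by 0.74 ± 0.09 in KO and 1.09 ± 0.09 in WT.

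Of 24 genes of the Fanconi core and its partners, 3 rose and 0 fell in each depot. Of all tested genes, 2.84% rose in VAT and 3.46% in SAT. The medians of the 24 were 0.01 in VAT and 0.10 in SAT. At an unadjusted p under 0.05, 1 was lower in VAT and 2 in SAT. DESeq2 gave 0 that fell in VAT and 1 in SAT, and limma-voom gave 0 in each. The count of calls fell to 1 in VAT without KO VAT replicate 4 or WT VAT replicate 2 or 4, and to 1 in SAT without KO SAT replicate 4. A count of 1 of 24 lies near the share of all tested genes. Fanca, a core complex subunit, rose by 0.73 ± 0.20 in VAT (edgeR adjusted p 0.0491) and 1.15 ± 0.22 in SAT (adjusted p 0.00429). Ube2t, the enzyme that passes ubiquitin to FANCD2, rose in VAT (1.23 ± 0.25, adjusted p 0.009) and had 0.47 ± 0.26 in SAT (adjusted p 0.288). Fancb, another core subunit, rose in SAT (0.55 ± 0.12, adjusted p 0.0113) and had 0.35 ± 0.12 in VAT (adjusted p 0.136). Rfwd3, a ubiquitin ligase of crosslink repair, rose by 0.39 ± 0.09 in VAT and 0.37 ± 0.09 in SAT. Between the depots Fanca and Fancb went opposite ways. Fanca was higher in VAT by 0.95 ± 0.20 in KO and 1.36 ± 0.22 in WT, and Fancb had -0.91 ± 0.12 in KO and -0.71 ± 0.12 in WT.

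Other repair lists were counted in the same way. Beside them, 2.84% of all tested genes rose and 4.1% changed in VAT, and 3.46% rose and 5.89% changed in SAT. The SAT counts of these lists were 1 to 3 genes, which lies near that share. Of 17 damage checkpoint genes, 3 rose in KO VAT and 1 in KO SAT. Clspn, the adaptor that lets ATR activate CHK1, rose in both (1.61 ± 0.26 in VAT and 1.40 ± 0.27 in SAT). Chek1, which encodes that kinase, rose in VAT (0.85 ± 0.16, edgeR adjusted p 0.00443) and had 0.49 ± 0.16 in SAT (adjusted p 0.0887). H2afx, the histone marked at breaks, rose in VAT (0.60 ± 0.12, edgeR adjusted p 0.00714) and had 0.26 ± 0.12 in SAT (adjusted p 0.215). Of 11 end joining genes, 0 changed in VAT, with 0 at an unadjusted p under 0.05 and 0 by DESeq2 and limma-voom. In SAT 1 rose, Xrcc5, which encodes a Ku subunit (0.29 ± 0.07, adjusted p 0.0315). Polq, which rose in both depots, was counted with the recombination partners and not in the end joining list. Of 34 excision and mismatch repair genes, 3 rose in VAT, and 1 rose and 2 fell in SAT. Neil3, a glycosylase, rose by 1.90 ± 0.27 in VAT and 1.73 ± 0.28 in SAT. Those that fell in SAT were Xpc (-0.22 ± 0.06, adjusted p 0.0499) and Nthl1 (-0.58 ± 0.16, adjusted p 0.0452), a glycosylase named after its values were seen. With DESeq2 4 of the 34 fell in SAT, and with limma-voom 0. The median of the list was -0.04 in VAT and 0.05 in SAT, and that of the end joining genes was -0.02 in VAT and 0.13 in SAT. Excision repair calls ranged from 1 to 3 in VAT and from 1 to 5 in SAT with a library left out. In VAT the count was 1 without KO VAT replicate 4 or WT VAT replicate 1. In SAT, leaving out KO SAT replicate 2, 3 or 4 or WT SAT replicate 1 or 3 gave 1, and leaving out WT SAT replicate 4 gave 5. The Xrcc5 call in SAT was lost without any one of the 4 KO SAT libraries or WT SAT replicate 1. Checkpoint calls in SAT became 2 without WT SAT replicate 4.

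The same lists were counted between the depots, where 43.3% of all tested genes in KO and 36.7% in WT changed. The share that changed lay below these values in each of the 5 lists. It lay near them for the Fanconi genes in both genotypes and for the end joining genes in WT. Of 38 recombination partners, 4 were higher and 1 lower in VAT in KO mice, and 2 were higher and 3 lower in WT mice. Top3a, the topoisomerase that works with BLM, fell in VAT in KO (-0.55 ± 0.09, edgeR adjusted p 9.63e-05) and had -0.21 ± 0.09 in WT (adjusted p 0.0831). Of 24 Fanconi genes, 4 were higher and 5 lower in KO, and 2 were higher and 6 lower in WT. Of 17 checkpoint genes, 4 were higher and 1 lower in KO, and 2 were higher and 1 lower in WT. Hus1, a subunit of the checkpoint clamp, was higher in VAT by 0.37 ± 0.13 in KO and 0.43 ± 0.13 in WT. Of 34 excision and mismatch repair genes, 4 were higher and 8 lower in KO, and 3 were higher and 4 lower in WT. Polb, the polymerase of base excision repair, fell in VAT (-0.79 ± 0.14 in KO and -0.81 ± 0.14 in WT), as did the glycosylase gene Neil2 (-1.39 ± 0.24 in KO and -1.56 ± 0.24 in WT). Of 11 end joining genes, 0 were higher and 2 lower in KO, and 2 were higher and 2 lower in WT. In KO, 0 were higher at an unadjusted p under 0.05 and by DESeq2 and limma-voom. Prkdc, the catalytic subunit of the DNA-dependent kinase, fell in both (-0.46 ± 0.10 in KO and -0.29 ± 0.10 in WT).

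**Figure D5:**
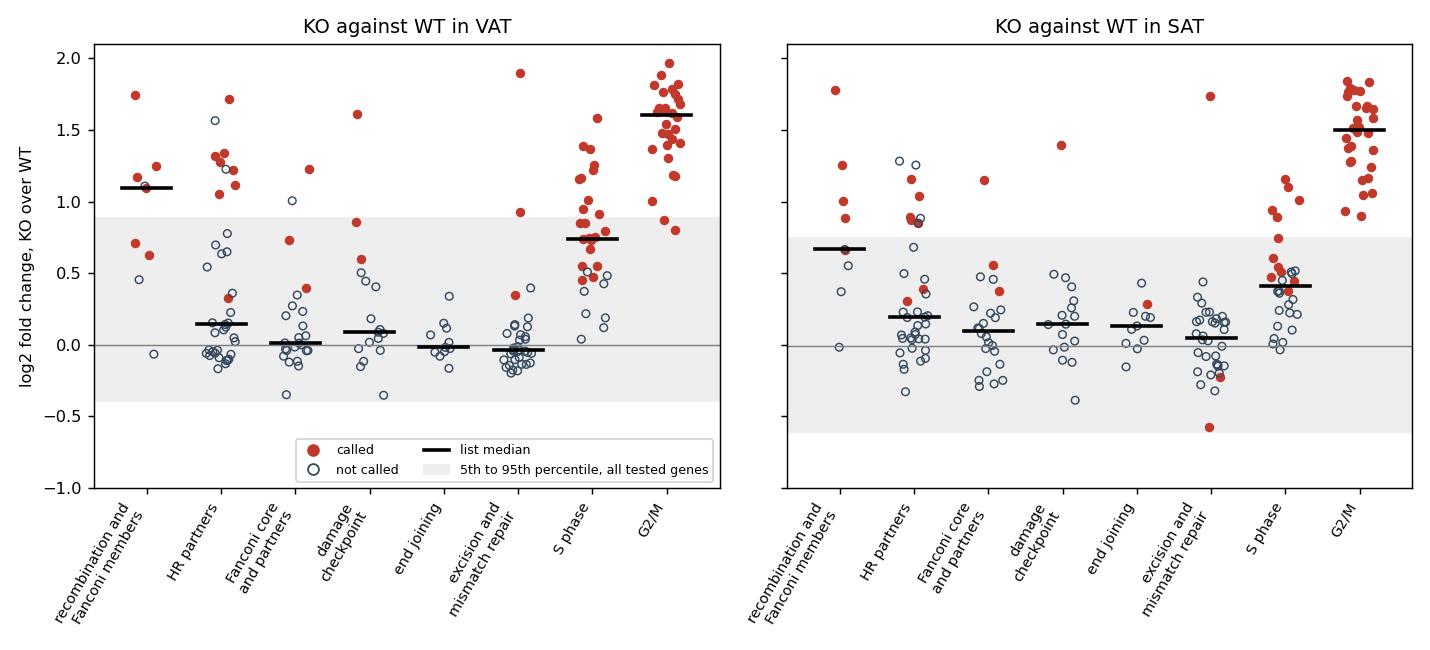
log2 fold change of KO over WT (vertical axis) of each tested gene in 8 lists, in VAT (left) and SAT (right). Filled points have an edgeR adjusted p under 0.05, black lines are list medians, and the grey band spans the 5th to 95th percentile of all tested genes. The 30 G2/M genes lie highest, with medians of 1.61 in VAT and 1.5 in SAT, while those of end joining are -0.02 and 0.13 and those of excision repair -0.04 and 0.05 in VAT and SAT.

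Genes of the cell cycle moved with the recombination genes. All 30 genes of a G2/M list rose in KO in both depots, with median log2 fold changes of 1.61 in VAT and 1.5 in SAT. Beside them, 2.84% of all tested genes rose in VAT and 3.46% in SAT. This list and the S phase list below were chosen with earlier results of these data known. Mki67, a marker of cycling cells, averaged 33.4 ± 5.08 CPM in KO VAT and 9.49 ± 1.42 CPM in WT VAT. In SAT it averaged 24.8 ± 4.06 CPM in KO and 7.24 ± 1.38 CPM in WT. Top2a rose by 1.78 ± 0.17 in VAT and 1.59 ± 0.18 in SAT. Of 30 S phase genes, 22 rose in VAT (median 0.74) and 12 in SAT (median 0.41), and 0 fell in either, with 0 lower at an unadjusted p under 0.05 and 0 lower by DESeq2 and limma-voom. The count in SAT was 7 when WT SAT replicate 1 was left out. Mcm5, a helicase subunit of replication, rose in VAT (1.01 ± 0.15, edgeR adjusted p 0.000552) and had 0.51 ± 0.15 in SAT (adjusted p 0.057). Pcna had 0.19 ± 0.07 in VAT (adjusted p 0.189) and 0.04 ± 0.07 in SAT (adjusted p 0.765). The part of the cell cycle genes in the values of the recombination genes was not tested.

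Markers of other cells were read in the same libraries. The summed level of 12 lymphocyte and plasma cell markers was 64.9 to 205 CPM in KO VAT, 14.8 to 74.3 in WT VAT, 25.1 to 48.2 in KO SAT and 14.2 to 17.8 in WT SAT. Most of it came from Ighm, Igkc and Igj, while Ms4a1, Cd79b and Cd8a were too low to be tested. The 10 macrophage and myeloid markers summed to 36.1 to 63.1 CPM in KO VAT, 42.4 to 65.0 in WT VAT, 30.2 to 37.6 in KO SAT and 25.01 to 37.6 in WT SAT. The 10 progenitor markers summed to 10772 to 12152 CPM in KO VAT, 13472 to 14311 in WT VAT, 16018 to 17681 in KO SAT and 15911 to 21705 in WT SAT. The 8 mesothelial markers summed to 824 to 1594 CPM in KO VAT, 841 to 1600 in WT VAT, 8.31 to 11.5 in KO SAT and 8.72 to 14.2 in WT SAT. The 8 endothelial markers summed to 95.5 to 114 CPM in KO VAT, 121 to 134 in WT VAT, 230 to 309 in KO SAT and 206 to 231 in WT SAT. The 8 pericyte and smooth muscle markers summed to 3957 to 5159 CPM in KO VAT, 4208 to 4588 in WT VAT, 1653 to 2283 in KO SAT and 2101 to 3426 in WT SAT. Lymphocyte sums did not overlap between KO and WT in SAT and overlapped in VAT, progenitor and endothelial sums were lower in KO than in WT in VAT without overlap, and mesothelial sums were far apart between the depots. The endothelial sum came mostly from Tek, at a mean of 148.5 CPM over all libraries beside 20.8 CPM for Kdr, the next highest, and 4 of the 8 endothelial markers had a positive log2 fold change in KO VAT. Tek and Kdr are named after their values were seen. The progenitor sum came mostly from Dcn, at a mean of 8704 CPM over all libraries. Of the 10 progenitor markers, 3 had a positive log2 fold change in KO VAT. By edgeR 1 of the 10 rose and 0 fell there, while DESeq2 gave 2 that fell and limma-voom 0. The part of these markers in the results was not tested.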

How the data were processed

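The authors deposited a table of raw read counts per gene symbol for the 16 libraries, and all values started from these counts. A second, normalised table was not used. Per the labels' protocols, the RNeasy Micro kit was used for RNA, the NEBNext Ultra RNA kit for libraries, and a NextSeq instrument for 75-base single reads. Per the submitters' processing notes, the tools were STAR, FastQC, featureCounts and DESeq, and the build mm10. For their versions, the annotation and the strand setting the sources used here give nothing. Column names mention MACS without naming the sort markers.

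Counts were analysed with edgeR 4.0.16 in R 4.3.3 (filterByExpr, TMM scaling, quasi-likelihood test, 1 coefficient per group, all 16 libraries, 12 residual degrees of freedom), and p-values were adjusted by the Benjamini-Hochberg method over 16842 tested genes. The script was tested on simulated data. CPM are TMM-scaled. Precision is limited by low counts and by 4 libraries per group. Alternatives were DESeq2 1.42.0, limma-voom (limma 3.58.1), RLE scaling, no filter, only the groups compared, leaving out each library, and a replicate block. No 2 libraries of a group agreed within sampling noise. Exon lengths and overlaps came from GENCODE vM21 (GRCm38), and promoters from RefSeq. Paxx, of the end joining list, was not matched.

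The members and lists were chosen with earlier results of these data known. Named genes were the 9 members, Nr4a1, the smallest p of each pathway list (up to 4 for KO against WT and 2 for VAT against SAT), 4 cell cycle examples and the 5 genes most like the members' average; others are marked in the text. Some genes that this rule names are not reported here.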

Additional observations from a re-analysis of the deposited data

How the results depend on the processing

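Outside the fits that left out a library, 289 of 306 log2 fold changes of the 9 genes kept their direction and their side of the threshold, 5 lost it, 10 gained it and 2 reversed. With a library left out, 522 of 576 kept both, 23 lost the threshold, 6 gained it and 25 reversed. Low counts (1 to 19 reads of Exo1 in WT SAT) and 4 libraries per group limit what could be detected. The cause of the changes below was not tested.

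The number of the 9 genes called in VAT against SAT in KO was 2, and became 4 with DESeq2, 4 with limma-voom, 4 with only the groups compared and 1 with no filter. Leaving out a library, it ranged from 4 to 7 in KO against WT in VAT, from 3 to 5 in SAT, from 7 to 8 over both depots, from 1 to 3 in VAT against SAT in KO and from 2 to 4 in WT, and was 0 to 0 for the interaction. The lowest count in SAT, 3, came without KO SAT replicate 4.

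The interaction of Brca1 reversed to 0.045 with limma-voom and 0.039 with the replicate block. Leaving out a library, log2 fold changes that reversed ranged from -0.15 to 0.0038 for Xrcc2 in VAT and -0.11 to 0.057 in SAT. For the interaction they ranged from -0.21 to 0.25 for Brca1, -0.48 to 0.28 for Exo1, -0.12 to 0.072 for Brca2, -0.071 to 0.22 for Fanci and -0.13 to 0.045 for Xrcc2.

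Replicate numbers were not taken as pairs, but pairing was not excluded. Of 24 same-number correlations of deviations, 4 exceeded 0.1 and 8 were best matches, but KO and WT cannot share an animal. VAT with SAT gave 0.14, 0.12, 0.11 and -0.04 in WT and 0.04, -0.04, 0.05 and 0.04 in KO. With the replicate block, 6 of the 9 genes were called in KO against WT in VAT, 5 in SAT, 8 over both depots, 3 in VAT against SAT in each genotype and 0 for the interaction. Brca1 then passed in VAT against SAT in KO (adjusted p 0.0143) and in WT (0.0353).

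Over all genes, calls in KO against WT in VAT were 690 (1248 with DESeq2; 412 to 625 without a library), in SAT 992 (1710 with DESeq2, 509 with only the groups compared; 469 to 1015), and for the interaction 45 (563 with DESeq2, 14 with the replicate block; 7 to 149). Under other settings, list counts that moved by over 1.5 times were as follows. With DESeq2, recombination partners in KO VAT were 13 (8), S phase genes 3 (0) for the interaction, and in KO SAT checkpoint genes 3 (1), end joining 2 (1) and excision repair 7 (3), with the edgeR count in parentheses. With limma-voom, excision repair in KO SAT was 1 (3) and G2/M in VAT against SAT in KO 16 (10). With no filter, end joining was 0 (1) and excision repair 1 (3) in KO SAT, and excision repair 3 (7) over both depots. In VAT against SAT in KO, the Fanconi core was then 4 (9), checkpoint 3 (5) and end joining 1 (2), and in WT end joining was 2 (4) and excision repair 3 (7). With only the groups compared, S phase was 7 (12), end joining 0 (1) and excision repair 1 (3) in KO SAT, and G2/M 16 (10) in VAT against SAT in KO. In WT it gave recombination partners 2 (5), end joining 1 (4), excision repair 2 (7) and G2/M 4 (7). Leaving out a library, they ranged from 7 to 12 for S phase (12) and 0 to 1 for end joining (1) in KO SAT, and from 4 to 9 for excision repair over both depots (7). In VAT against SAT in KO they ranged from 4 to 8 for the Fanconi core (9), 1 to 5 for checkpoint (5), 1 to 2 for end joining (2), 7 to 12 for excision repair (12), 3 to 6 for recombination partners (5) and 4 to 16 for G2/M (10). In WT they ranged from 1 to 4 for end joining (4), 4 to 7 for excision repair (7), 3 to 7 for recombination partners (5), 3 to 9 for S phase (6) and 4 to 13 for G2/M (7).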
